A study of Homo sapiens with 6 samples.

Results

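The genes described here encode the enzymes and glucose carriers of glycolysis, of the pentose phosphate pathway and of glycogen turnover, together with malic enzyme 1 and isocitrate dehydrogenase 1, which also make NADPH in the cytosol. They were taken by symbol from a list of 39 genes, and all 39 were found among the 61859 genes of the deposited expression table. Of these, 37 averaged 10 or more normalized counts and were tested among 18460 genes in all. Aldolase C (ALDOC, mean 8.18) and fructose-1,6-bisphosphatase 1 (FBP1, mean 0.709) fell below that filter and were not tested.

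The cells were OSC19SSZR, a line of human oral squamous cell carcinoma that resists sulfasalazine, an inhibitor of the cystine transporter xCT. All samples were of this resistant line, grown in DMEM with fetal bovine serum, and none was of a drug-sensitive line. A control siRNA (3 samples) or an siRNA against the transcription factor FOXA1 (3 samples) was delivered with Lipofectamine RNAi max, and total RNA was sequenced after 48 h. The labels do not say whether the 3 samples of a group were separate cultures or how many siRNA sequences were used, so the p-values may reflect technical spread alone.

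Glycolysis splits glucose into pyruvate in the cytosol and yields ATP and NADH on the way. Its early intermediates also feed side routes: glucose 6-phosphate enters the oxidative pentose phosphate branch, which makes NADPH and pentose phosphates, or is turned into glucose 1-phosphate and stored as glycogen. The non-oxidative branch exchanges pentose phosphates with glycolytic intermediates in both directions, and squamous carcinomas are known for high glucose uptake.

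FOXA1 itself was at 1477, 1378 and 1459 normalized counts after control siRNA and at 247, 192 and 189 after FOXA1 siRNA. That is -2.79 ± 0.09 (SE) on the log2 scale (limma adjusted p = 3.32e-18), and the exact two-sided permutation test gave p = 0.1, the smallest that 3 against 3 samples allow. The reads behind each sample ranged from 16510125 to 25732569. All 10 markers of squamous epithelium were tested. Of these, 4 rose (KRT17, SFN, DSG3 and EPCAM, at 1.01, 1.14, 0.65 and 0.14 on the log2 scale). Another 2 fell (KRT5 at -0.18 and TP63 at -0.40). Over all tested genes 26.8% rose and 25% fell. KRT5 averaged 31639 and 27947 normalized counts, whereas KRT14 was low (30.0 and 47.6). KRT6A was at 50.4, 38.3 and 802 in the control samples, so control siRNA replicate 3 was far above the others. After FOXA1 siRNA it was at 178, 72.1 and 64 (-0.31 ± 1.43, limma adjusted p = 0.88). Of 14 markers of fibroblasts, leukocytes and endothelium, 3 were tested, LUM and DCN were at 0 in every sample, and the 14 summed to between 809 and 840 in the control samples and between 474 and 505 after FOXA1 siRNA. Most of that sum was CDH5 (554 and 288), and its part in the results below was not tested. In bulk RNA, a change in the number of cells that express a gene and a change in RNA per cell cannot be told apart.

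After FOXA1 siRNA, 9 of the 37 tested members rose (24.3%) and 12 fell (32.4%), and 16 did not pass the threshold of limma with an adjusted p under 0.05. Over all tested genes, 26.8% rose and 25% fell, and neither share of the members was far from that background. The median log2 fold change of the members was -0.044, beside 0.004 over all tested genes and 0.118 over the 4163 genes with a mean of at least 1000. Among those highly expressed genes 47.7% rose and 22.3% fell. The members' changes ran from -1.02 for phosphoglycerate mutase 1 (PGAM1) to 1.76 for ribose 5-phosphate isomerase (RPIA). Changes of at least 0.5 on the log2 scale were few: RPIA and liver glycogen phosphorylase (PYGL) rose by that much, where 9.59% of all tested genes did, and the glucose carrier SLC2A1, PGAM1, enolase 2 (ENO2) and hexose-6-phosphate dehydrogenase (H6PD) fell by that much, where 13.9% did. The 3 control values did not overlap the 3 FOXA1 siRNA values in 24 members (64.9%), compared with 57.6% of all tested genes. In the authors' deposited table, 9 members were higher and 11 lower at an adjusted p under 0.05, where 22.7% and 20% of the same genes were. All but 1 of the 21 calls were shared, the exception being malic enzyme 1 (ME1).

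The split between rises and falls depended on the scaling. It was 9 and 12 with the authors' scaling, 5 and 17 with equal library totals, 6 and 20 after quantile normalization and 4 and 21 after cyclic loess normalization. The shares of all tested genes that rose or fell are given here for the authors' scaling only. Over all tested genes the median log2 fold change was -0.093 with equal totals, 0.029 after quantile and 0.007 after cyclic loess normalization. Limma without its trend and robust options called 5 rises and 8 falls. Of the 21 calls, 12 kept their direction and stayed past the threshold in all 16 alternatives run: SLC2A1, HK1, PGAM1, ENO2, PFKFB4, TIGAR, H6PD and GYS1, which fell, and RPIA, PGM1, PGM2 and PYGL, which rose. The other 9 had changes of at most 0.24 on the log2 scale, and each is given below with the setting that ended its call.

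**Figure D1:**
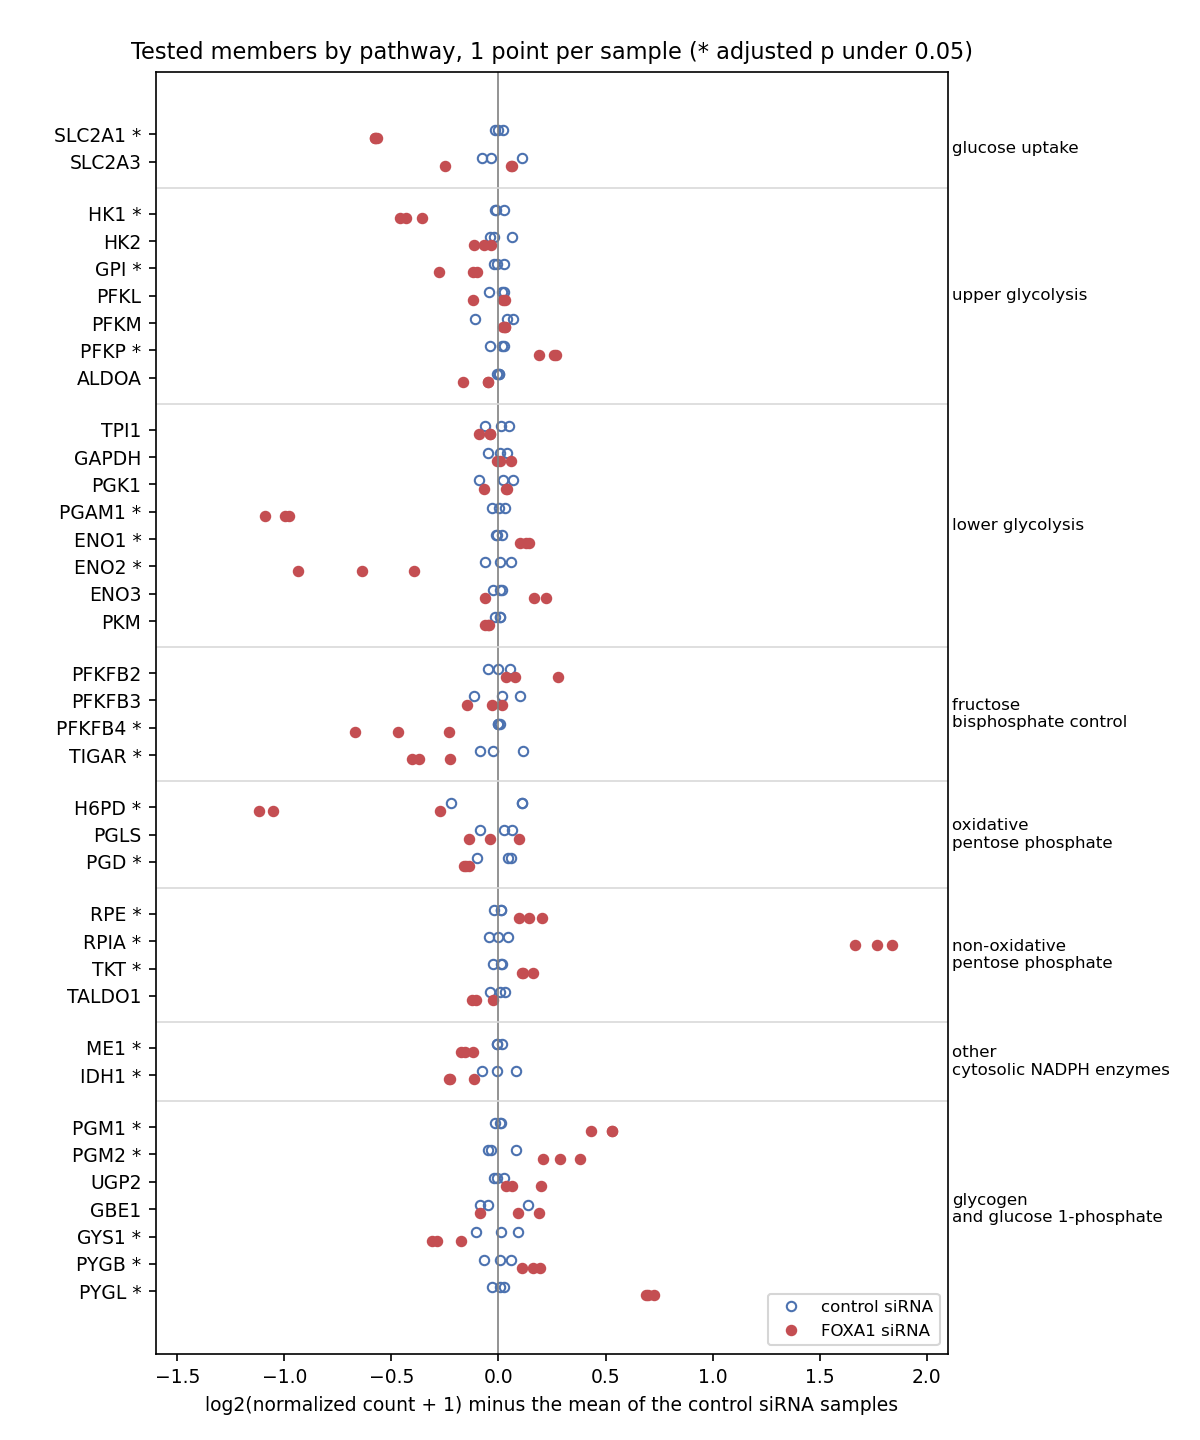
Each of the 37 tested members in pathway order, with log2(normalized count + 1) minus the mean of the control siRNA samples on the horizontal axis and 1 point per sample (open, control siRNA; filled, FOXA1 siRNA). RPIA stands farthest to the right and PGAM1 and H6PD reach farthest to the left, with the H6PD points spread more widely, while GAPDH, PGK1, PFKM and HK2 lie around 0 in both groups.

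**Figure D2:**
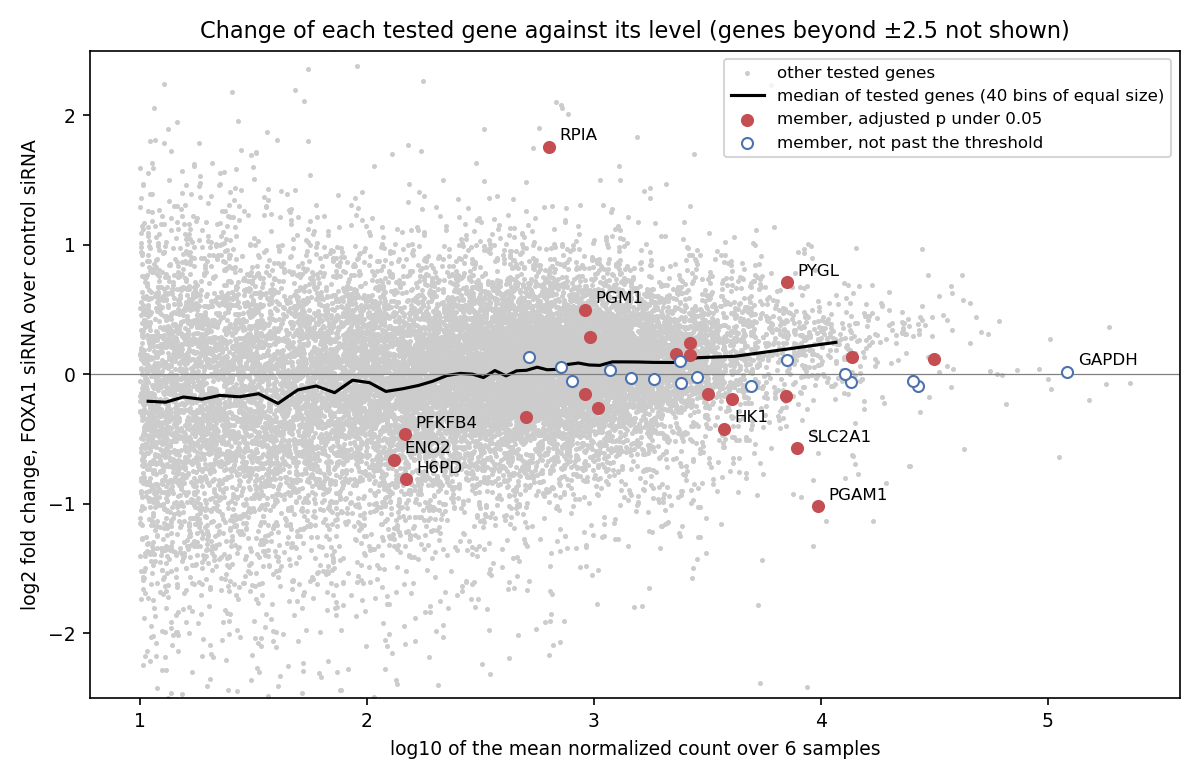
The log2 fold change of each tested gene (FOXA1 siRNA over control siRNA) against the log10 of its mean normalized count, with the members as large circles (filled where the limma adjusted p was under 0.05) and the median of all tested genes as a line. The line climbs with level, and several highly expressed members, among them PGAM1 and SLC2A1, lie under it.

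The level of a gene moved with its fold change across the whole table, which bears on the abundant glycolytic genes. Over the 219 genes with a mean of at least 10000, the median log2 fold change was 0.271. Among the 200 tested genes nearest in level to GAPDH, which are largely the same genes, it was 0.27. For PGAM1 it was 0.24 and for RPIA 0.06. RPIA had the 36th largest rise of the 18460 tested genes. PGAM1 had the 966th largest fall and PYGL the 967th largest rise.

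Promoter windows of 300 bases around the RefSeq gene start (GRCh38.p14) were found for 37 of the 39 members, SLC2A3 and PFKFB2 being the exceptions. Short words were searched on both strands. The forkhead words TGTTTAC and TGTTTGC, which FOXA factors are known to bind, were in 0 and 2 of the 37 windows, against 3.42% and 3.89% of all 35116 windows. The 2 with TGTTTGC were ALDOC and brain glycogen phosphorylase (PYGB). The hypoxia response words ACGTG and GCGTG were in 13 (35.1%) and 20 (54.1%) of the members' windows and in 21.4% and 36.5% of all windows, and the E-box CACGTG, which contains ACGTG, was in 3 (8.11%) against 7.26%. A match is a description of the letters only. The stretches before the annotated start are shown for RPIA, the member with the largest rise, for HK1, a member that fell, and for PYGB, which holds a forkhead word. They were the 3 members with the largest changes among those called whose window reached at least 200 bases before the GENCODE gene start and held no exon of another gene. Capitals mark any of the 5 words on either strand, and each line reads 5′ to 3′ on the strand of the gene.
RPIA, chr2:88691423-88691643, plus strand: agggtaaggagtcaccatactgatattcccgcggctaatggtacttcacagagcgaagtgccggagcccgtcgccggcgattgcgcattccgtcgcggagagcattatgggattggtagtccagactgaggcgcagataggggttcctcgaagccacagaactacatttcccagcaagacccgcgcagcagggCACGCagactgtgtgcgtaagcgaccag
HK1, chr10:69269750-69269983, plus strand: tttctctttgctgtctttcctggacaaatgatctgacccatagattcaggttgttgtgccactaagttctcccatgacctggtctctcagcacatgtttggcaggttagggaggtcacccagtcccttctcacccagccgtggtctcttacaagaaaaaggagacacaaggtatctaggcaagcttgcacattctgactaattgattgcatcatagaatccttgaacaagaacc
PYGB, chr20:25247835-25248068, plus strand: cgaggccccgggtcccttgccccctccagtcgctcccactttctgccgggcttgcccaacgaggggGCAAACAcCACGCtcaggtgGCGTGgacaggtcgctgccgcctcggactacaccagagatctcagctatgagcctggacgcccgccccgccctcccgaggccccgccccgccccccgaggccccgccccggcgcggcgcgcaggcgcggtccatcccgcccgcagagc
RPIA's stretch held 1 GCGTG word, read as CACGC on this strand, HK1's held none of the 5 words, and PYGB's held TGTTTGC, read as GCAAACA, and 2 GCGTG words. HK1's stretch was poorer in G and C (46.2%) than those of RPIA (58.4%) and PYGB (75.6%). Only 1 annotated start per gene was taken, and which start the RNA of a gene used was not tested.

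Glucose enters the cells through facilitative carriers, of which SLC2A1 (GLUT1) and SLC2A3 (GLUT3) were members. SLC2A1 (ENSG00000117394, GRCh38 chr1:42925375-42959176, minus strand) was at 9527, 9281 and 9396 normalized counts in the control samples and at 6311, 6295 and 6350 after FOXA1 siRNA. Every treated sample was lower than every control sample, and the groups were far apart relative to their spread (SD 123 and 28.5, n = 3 each). On the log2 scale the difference was -0.57 ± 0.04 (SE, limma adjusted p = 9.03e-12), a level of 67.2% of control. SLC2A3 was at 2003, 1760 and 1810 and then at 1939, 1557 and 1930. These values overlapped (-0.04 ± 0.08, limma adjusted p = 0.676), and the treated samples spread more widely than the control samples. Of 3 pseudogenes named for SLC2A3, SLC2A3P1 held 317 normalized counts on average, and together they held 17.4% of SLC2A3's level, so reads could be divided between them.

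In the upper part of glycolysis, from hexokinase to aldolase, 1 of 7 tested members rose and 2 fell. Over all tested genes the shares were 26.8% and 25%. HK1, the hexokinase that traps glucose as glucose 6-phosphate and sits on mitochondria, was at 4223, 4348 and 4236 in control samples and 3327, 3167 and 3105 after FOXA1 siRNA. The groups did not overlap, and the log2 fold change was -0.42 ± 0.05 (limma adjusted p = 2.89e-08). HK2, the inducible hexokinase, was at 2456, 2423 and 2601 and then 2430, 2301 and 2377, which overlapped (-0.07 ± 0.05, limma adjusted p = 0.236). HK2 passed the threshold with equal totals, quantile and cyclic loess scaling, at -0.17, -0.15 and -0.19.

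Glucose-6-phosphate isomerase (GPI) fell slightly, from 7378, 7545 and 7310 to 6905, 6820 and 6102 (-0.17 ± 0.05, limma adjusted p = 0.00518). FOXA1 siRNA replicate 3 was the lowest, and without it the change was -0.11. The change was -0.34 after cyclic loess normalization, and it lost its call in limma without the trend and robust options (adjusted p = 0.0946). A second gene model on the same strand, AC092073.1, shares 542 exon bases with GPI and had 25.5% of its level.

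The 3 subunits of phosphofructokinase, the committed step of glycolysis, differed. PFKP, the platelet subunit, rose from 2470, 2362 and 2459 to 2906, 2923 and 2769 (0.24 ± 0.05, limma adjusted p = 0.000204), with no overlap. After cyclic loess normalization its change was 0.12 and just missed the threshold (limma adjusted p = 0.0502). The liver subunit PFKL was at 2891, 2904 and 2773 and then 2915, 2894 and 2632, and the muscle subunit PFKM was at 1216, 1077 and 1195 and then 1179, 1185 and 1186. Neither passed the threshold (-0.02 ± 0.05 and 0.03 ± 0.06), and the sign of PFKM turned with equal totals, quantile and cyclic loess scaling.

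Aldolase A (ALDOA), which splits fructose 1,6-bisphosphate, was at 27594, 27417 and 27564 and then 26626, 26614 and 24520. The groups did not overlap, but the change of -0.09 ± 0.04 did not pass the threshold (limma adjusted p = 0.0839). It passed without FOXA1 siRNA replicate 1 (-0.11, limma adjusted p = 0.0469), with no filter on low values (-0.09) and with equal totals, quantile and cyclic loess scaling (-0.19, -0.31 and -0.32). Without FOXA1 siRNA replicate 3, the lowest sample, it was -0.05 (limma adjusted p = 0.296). ALDOA shares 1657 exon bases with the same-strand gene model AC093512.2, whose values in each sample were close to its own (99.9% on average), so the same reads may be counted in both. ALDOC, the brain form, was at 7.61, 5.04 and 7.32 and then 7.50, 12.1 and 9.49.

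In the lower part of glycolysis, from triose phosphate isomerase to pyruvate kinase, 1 of 8 members rose and 2 fell. The shares over all tested genes were again 26.8% and 25%. PGAM1 (ENSG00000171314, GRCh38 chr10:97426160-97433441), which converts 3-phosphoglycerate into 2-phosphoglycerate, had the largest fall of all members. It was at 13339, 12786 and 13082 in the control samples and at 6631, 6544 and 6128 after FOXA1 siRNA, 49.2% of control. The highest treated value was far under the lowest control value (log2 fold change -1.02 ± 0.04, limma adjusted p = 1.25e-16). The change ran from -1.21 to -0.99 over the 16 alternatives. PGAM1 shares no exon bases with another annotated gene, and the 13 pseudogenes named for it held 0.185% of its level. PGAM4, a retrocopy of PGAM1 on which reads of PGAM1 could also be placed, fell from 193, 199 and 199 to 97.5, 102 and 77.1 (-1.10 ± 0.13, limma adjusted p = 8.58e-08), and the reads of these near-identical genes may not be told apart.

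The 3 enzymes before PGAM1 in the pathway did not pass the threshold. Triose phosphate isomerase (TPI1) was at 14275, 13176 and 13915 and then 13402, 13407 and 12941. GAPDH, which makes 1,3-bisphosphoglycerate and NADH and is often used as a reference gene, was at 124366, 116843 and 121656 and then 120321, 121636 and 125951. Phosphoglycerate kinase 1 (PGK1), the first ATP-yielding step, was at 13329, 11970 and 12934 and then 13066, 12161 and 13088. In all 3 genes the groups overlapped, and the log2 fold changes were -0.06 ± 0.04, 0.02 ± 0.04 and 0.00 ± 0.05 (limma adjusted p = 0.285, 0.689 and 0.954).

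These near-zero values rest on the authors' scaling. GAPDH was at -0.08 with equal totals, at 0.15 past the threshold after quantile normalization and at -0.28 past the threshold after cyclic loess normalization. PGK1 was at -0.09, -0.15 and -0.20 and TPI1 at -0.15, -0.22 and -0.26 under the same 3 settings, where all but the first value of PGK1 passed the threshold. GAPDH shares 422 exon bases with the antisense gene AC006064.4, which had 45.5% of its level, and whether reads were counted by strand is not given in the sources used here.

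Enolase makes phosphoenolpyruvate. ENO1, the common form, rose slightly from 30582, 30013 and 30069 to 32990, 32415 and 33381 with no overlap (0.12 ± 0.04, limma adjusted p = 0.0101), but its direction turned to -0.11 after quantile and -0.12 after cyclic loess normalization, both past the threshold. It was 0.03 with equal totals, and it lost the call without control siRNA replicate 2 or 3 (0.12 each, limma adjusted p = 0.0523 and 0.0514) and without limma's trend and robust options. ENO2, the neuronal form, was at 162, 167 and 154 and fell to 122, 83.5 and 103, a log2 fold change of -0.66 ± 0.14 (limma adjusted p = 0.00032). ENO2 was low beside ENO1 in both groups, and its treated samples spread widely.

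ENO3, the muscle form, was at 6722, 6871 and 6918 and then 7658, 7973 and 6550. It did not pass the threshold (0.11 ± 0.06, limma adjusted p = 0.122). FOXA1 siRNA replicate 3 was under all control values, and without it ENO3 was at 0.19 (limma adjusted p = 0.000298). With no filter on low values it also passed the threshold, at 0.11 (limma adjusted p = 0.0446), and it turned to -0.07 after quantile and cyclic loess normalization. ENO3 shares 111 exon bases with PFN1 on the opposite strand, which held 189% of its level and itself rose (0.19 ± 0.05, limma adjusted p = 0.00158), and replicate 3 was likewise PFN1's lowest treated sample. Whether reads of PFN1 are counted in ENO3 was not tested.

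Pyruvate kinase M (PKM), which makes pyruvate and ATP, was at 25932, 25551 and 25896 and then 24703, 25037 and 24956. The groups did not overlap, but the change was small (-0.05 ± 0.04, limma adjusted p = 0.295). It passed the threshold with equal totals, quantile and cyclic loess scaling (-0.15, -0.32 and -0.28). The table counts the gene as a whole, so its M1 and M2 splice forms were not separated.

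**Figure D3:**
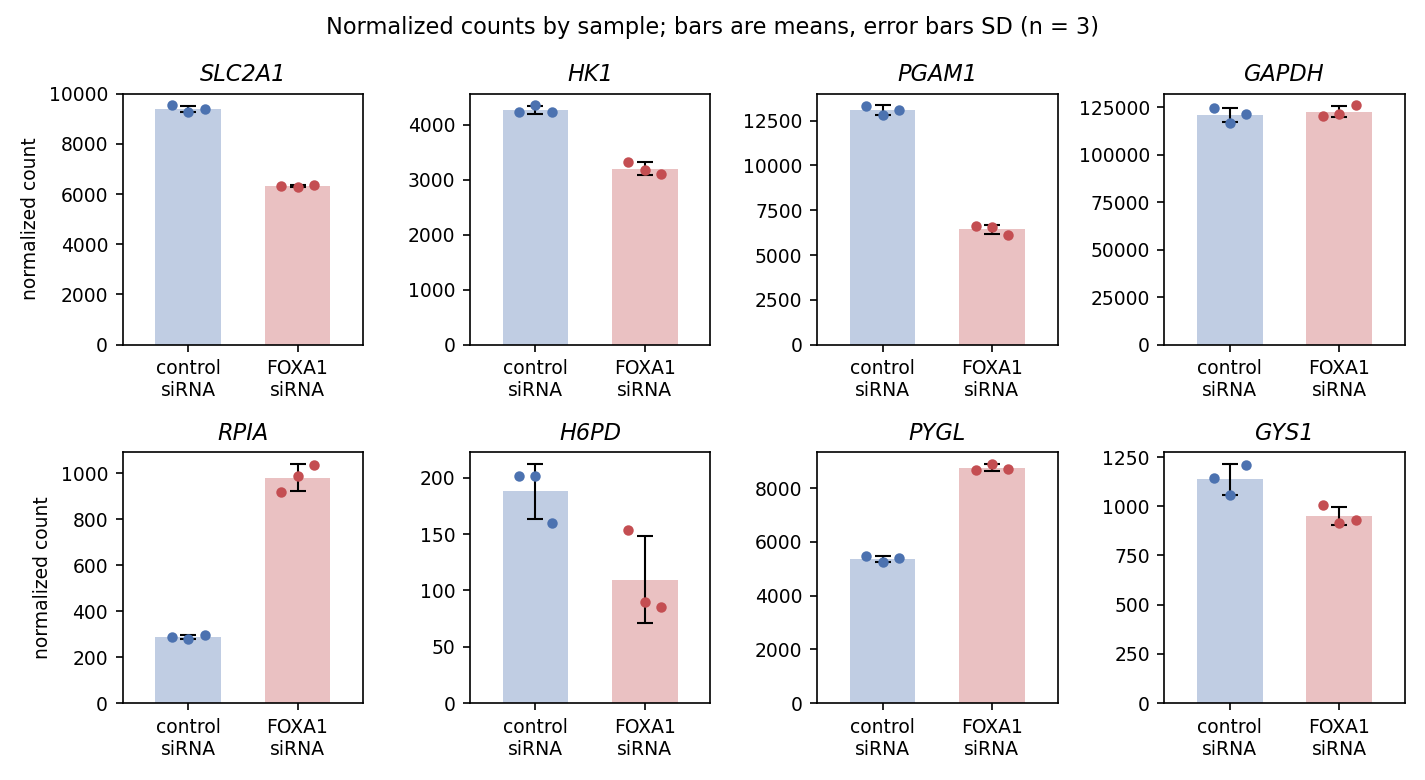
Normalized counts of 8 members by sample, with bars at the mean and error bars of 1 SD (n = 3). SLC2A1, HK1, PGAM1, H6PD and GYS1 are lower after FOXA1 siRNA, RPIA and PYGL are higher, and GAPDH overlaps, with H6PD showing the widest spread.

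Fructose 2,6-bisphosphate, the strongest activator of phosphofructokinase, is made and removed by the PFKFB enzymes and can be removed by TIGAR. Of the 4 tested members of this group, 2 fell and none rose, beside 25% and 26.8% of all tested genes. PFKFB4 was at 169, 170 and 169 and fell to 145, 106 and 122 (-0.46 ± 0.13, limma adjusted p = 0.00442). TIGAR, a p53 target, fell from 607, 550 and 527 to 423, 433 and 479 (-0.33 ± 0.08, limma adjusted p = 0.000888). In both genes the treated samples were all below the control samples. TIGAR shares 1711 exon bases with the same-strand gene model AC008012.1, which had 229% of its level and was at -0.03 ± 0.06.

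PFKFB3, the member of the family with the highest kinase activity relative to its phosphatase activity, was at 821, 749 and 869 and then 794, 732 and 820. PFKFB2, the heart form, was at 495, 478 and 514 and then 600, 508 and 523. Both overlapped between the groups (-0.05 ± 0.07 and 0.13 ± 0.08, limma adjusted p = 0.543 and 0.169). FBP1, the gluconeogenic enzyme that reverses the phosphofructokinase step, was at 0.951, 0 and 1.05 in control samples and 1.07, 0 and 1.19 after FOXA1 siRNA, so at most about 1 read per sample.

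In the oxidative pentose phosphate branch, 2 of 3 members fell, where 25% of all tested genes did. H6PD, which oxidizes glucose 6-phosphate inside the endoplasmic reticulum, was at 202, 202 and 160 and fell to 154, 89.5 and 85.4 (-0.81 ± 0.20, limma adjusted p = 0.00435). The first treated sample lay just under the lowest control sample and the other treated samples lay much lower. Phosphogluconate dehydrogenase (PGD), the NADPH-making step that yields ribulose 5-phosphate, fell from 3472, 3105 and 3432 to 2984, 3032 and 3001 (-0.15 ± 0.05, limma adjusted p = 0.0158). The call of PGD was lost without control siRNA replicate 1 (-0.12, limma adjusted p = 0.0915), without control siRNA replicate 3 (-0.13, limma adjusted p = 0.0901) and without limma's trend and robust options (adjusted p = 0.109), and its change was -0.28 at the far end of the alternatives. Phosphogluconolactonase (PGLS) was at 1493, 1382 and 1531 and then 1428, 1566 and 1333, with overlap (-0.03 ± 0.06).

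In the non-oxidative branch, 3 of 4 members rose and none fell, where 26.8% of all tested genes rose and 25% fell. RPIA (ENSG00000153574, GRCh38 chr2:88691644-88750935), which interconverts ribulose 5-phosphate and ribose 5-phosphate, the sugar of nucleotides, had by far the largest change of any member. It was at 288, 280 and 298 in control samples and at 918, 986 and 1037 after FOXA1 siRNA, 339% of control. The lowest treated sample lay well above the highest control sample (log2 fold change 1.76 ± 0.07, limma adjusted p = 6.78e-17). The change ran from 1.66 to 1.80 over the alternatives. RPIA shares no exon bases with another annotated gene, and its 1 named pseudogene was at 0.

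The other rises of the branch were small. Ribulose-phosphate 3-epimerase (RPE) went from 2541, 2484 and 2543 to 2697, 2782 and 2901 (0.15 ± 0.05, limma adjusted p = 0.0147). Transketolase (TKT), which moves 2-carbon units between sugar phosphates, went from 13179, 12845 and 13220 to 14137, 14157 and 14631 (0.13 ± 0.04, limma adjusted p = 0.011). Neither gene overlapped between groups. Over the tested genes nearest in level, the median log2 fold change was 0.15 for RPE and 0.26 for TKT, so neither rose more than genes of its level. Both lost the call with equal totals (0.05 and 0.03), without control siRNA replicate 2 (0.14 and 0.12, limma adjusted p = 0.0657 and 0.0678) and without limma's trend and robust options, and TKT turned to -0.02 and -0.07, not past the threshold, after quantile and cyclic loess normalization, where RPE was at 0.05 and 0.02. RPE shares 837 exon bases with KANSL1L on the other strand. Transaldolase (TALDO1) was at 5194, 4955 and 5112 and then 4722, 4994 and 4668, with overlap (-0.09 ± 0.05, limma adjusted p = 0.128), and it passed the threshold with equal totals, quantile and cyclic loess scaling (-0.18, -0.25 and -0.24).

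Both other cytosolic NADPH enzymes fell slightly, where 25% of all tested genes fell. Isocitrate dehydrogenase 1 (IDH1) was at 4562, 4099 and 4304 and then 3681, 3695 and 3984, with every treated sample below every control sample (-0.19 ± 0.05, limma adjusted p = 0.00257). It was at -0.34 at the far end of the alternatives and lost its call without limma's trend and robust options (adjusted p = 0.0667). ME1 was at 955, 957 and 971 and then 851, 861 and 885, without overlap (-0.15 ± 0.06, limma adjusted p = 0.0418). Its call was lost in 8 of the 16 alternatives, among them every setting that left out 1 sample except the one without FOXA1 siRNA replicate 3, with log2 fold changes of -0.16, -0.15 and -0.14 without control siRNA replicates 1, 2 and 3 and of -0.14 and -0.15 without FOXA1 siRNA replicates 1 and 2. In the authors' deposited table ME1 had an adjusted p of 0.0949.

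Of the 7 genes of glycogen and glucose 1-phosphate, 4 rose and 1 fell, beside 26.8% and 25% of all tested genes. Both phosphorylases, which release glucose 1-phosphate from glycogen, and both phosphoglucomutases rose, and the gene that fell was glycogen synthase 1 (GYS1), which lengthens glycogen chains. PYGL (ENSG00000100504, GRCh38 chr14:50857891-50944736, minus strand), the liver form, was at 5468, 5260 and 5399 and then 8671, 8903 and 8724. The treated values were 163% of control with no overlap (0.71 ± 0.04, limma adjusted p = 1.94e-13). PYGB, the brain form, went from 2083, 2192 and 2275 to 2498, 2440 and 2356 (0.16 ± 0.05, limma adjusted p = 0.0136). The rise of PYGB lost its call with equal totals, quantile and cyclic loess scaling (0.06, 0.09 and 0.04), without control siRNA replicate 1 (0.12, limma adjusted p = 0.0871), without FOXA1 siRNA replicate 1 (0.14, limma adjusted p = 0.0598) and without limma's trend and robust options. PYGL shares 180 exon bases with the antisense gene AL358334.3, whose mean was 915 normalized counts.

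Phosphoglucomutase 1 (PGM1), which interconverts glucose 1-phosphate and glucose 6-phosphate, rose from 762, 765 and 749 to 1095, 1022 and 1095 (0.50 ± 0.06, limma adjusted p = 1.59e-07). PGM2, which acts mainly on pentose 1-phosphates, rose from 915, 843 and 835 to 999, 1055 and 1126 (0.29 ± 0.07, limma adjusted p = 0.000429). Neither overlapped between groups. GYS1 fell from 1144, 1056 and 1211 to 1005, 916 and 930 (-0.26 ± 0.06, limma adjusted p = 0.0015), and every treated sample was below every control sample. UDP-glucose pyrophosphorylase (UGP2), which makes the donor for glycogen synthase, was at 2350, 2297 and 2268 and then 2409, 2359 and 2646. Its groups did not overlap but it did not pass the threshold (0.10 ± 0.05, limma adjusted p = 0.12). The branching enzyme GBE1 was at 766, 656 and 673 and then 742, 656 and 793, with overlap (0.06 ± 0.08).

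Where a step has several isozymes, the make-up of the step was compared on normalized counts per kilobase of joined exons, and each share was tested with the exact permutation test, for which 0.1 is the smallest p. HK1 made up 62.3% ± 1.14 (SD, n = 3) of the HK1 and HK2 level in control samples and 56.5% ± 0.707 after FOXA1 siRNA. SLC2A1 made up 86.8% ± 0.641 of the level of both carriers and then 82.0% ± 1.76. PYGL made up 69.7% ± 1.17 of both phosphorylases and then 77.1% ± 0.601. In these 3 pairs the shares did not overlap between groups, and each exact permutation p was 0.1.

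PFKP went from 51.2% ± 0.495 to 55.4% ± 0.21 of the 3 phosphofructokinase subunits while PFKL went from 32.6% ± 1.14 to 29.5% ± 0.72, each with an exact permutation p of 0.1. PFKFB4 went from 13.3% ± 0.788 to 10.1% ± 0.967 of the 3 PFKFB genes (exact permutation p = 0.1). PGM1 went from 43.6% ± 1.14 to 47.1% ± 1.75 of PGM1 and PGM2 (exact permutation p = 0.1). As PGM2 acts mainly on pentose 1-phosphates, the PGM1 share does not describe the glucose 1-phosphate step alone. ENO1 held 77.8% ± 0.421 and 78.1% ± 1.94 of the enolases, which overlapped (exact permutation p = 1), and ENO2 held under 1% in both groups. ENO3 held 21.6% in both groups, and whether reads of PFN1 are counted in that part was not tested. The order of the phosphofructokinase subunits depended on the gene length used. With the longest coding transcript in place of the joined exons, PFKL (44.2%) led PFKP (39.6%) in the control samples, and PGM1 (51.9%) led PGM2 (48.1%).

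**Figure D4:**
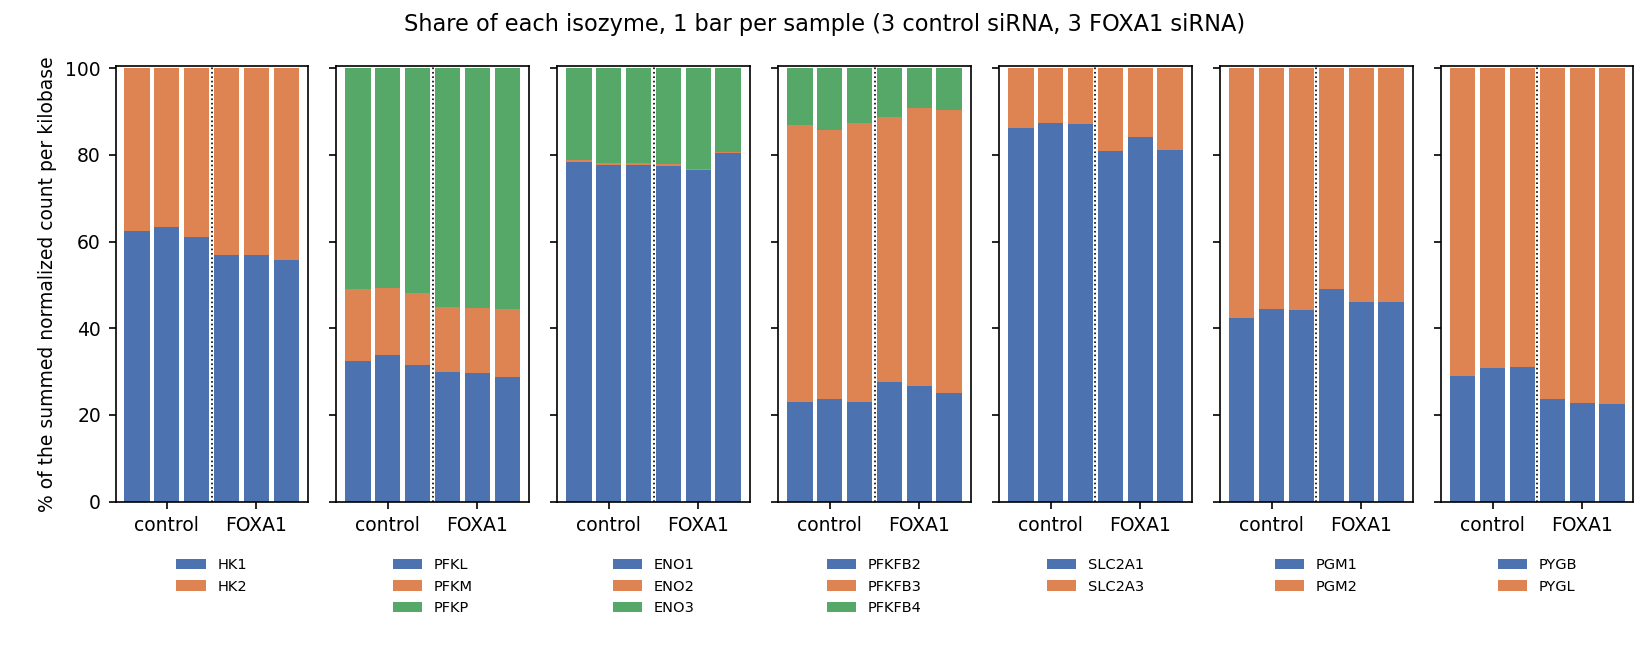
Share of each isozyme in the summed normalized counts per kilobase of its step, as stacked bars with 1 bar per sample (3 control siRNA samples left of the dotted line, 3 FOXA1 siRNA samples right of it). The HK1 and SLC2A1 shares shrink, the PFKP and PYGL shares grow, and the enolase shares stay close to each other. The ENO3 share may hold reads of PFN1, which was not tested.

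Summed over isozymes, the level per kilobase after FOXA1 siRNA was 82.5% of control for the hexokinases, 109% for phosphofructokinase, 94.2% for the aldolases, 109% for the enolases, 96.3% for the PFKFB genes and 71.2% for the glucose carriers. It was 147% for the phosphorylases and 131% for PGM1 and PGM2 together, of which PGM2 acts mainly on pentose 1-phosphates. All these sums were apart between groups (exact permutation p = 0.1) except that of the PFKFB genes (exact permutation p = 0.6). They rest on the authors' scaling and were not computed under the other scalings. There the log2 fold change of ENO1, the main part of the enolase sum, was 0.03 with equal totals, -0.11 after quantile and -0.12 after cyclic loess normalization. The enolase sum includes ENO3, whose exons overlap those of PFN1. The whole list made up 1.82% ± 0.0312 of all normalized counts in control samples and 1.67% ± 0.0166 after FOXA1 siRNA. Without GAPDH it made up 1.15% ± 0.0136 and 1.04% ± 0.021. The total of normalized counts itself was larger after FOXA1 siRNA (19174648 to 19582289) than in control samples (18080921 to 18291465). A lower share is therefore not by itself a lower level. GAPDH's share went from 0.666% to 0.631% while its log2 fold change was 0.02.

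On the scale of normalized counts per kilobase of joined exons, GAPDH was the highest member in the control samples with 40575, followed by ALDOA (7029), ENO1 (5728), TPI1 (5107), PGAM1 (5089) and PKM (3009). TPI1 and PGAM1 lay within their spread of each other in control samples. After FOXA1 siRNA PGAM1 was at 2506, below PKM at 2905. RPIA went from rank 30 to rank 19 of 39, PYGL from 13 to 8 and SLC2A1 from 8 to 12. The lowest tested members were PFKFB4 (27.8) and H6PD (20.1) in the control samples. With the longest coding transcript as the length, PKM moved up to rank 4 and PGAM1 was at rank 6 in control samples.

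The replicates of the members were close. Their coefficient of variation had a median of 3.07% in control samples and 4.17% after FOXA1 siRNA. The widest spread in each group was 12.8% and 35.2%, and H6PD, with few reads, had the widest after FOXA1 siRNA.

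Another 79 genes of the same pathways were listed, of which 56 were tested. Of these, 14 rose (25.0%) and 20 fell (35.7%), beside the same 26.8% and 25% of all tested genes, with a median log2 fold change of -0.097. The largest rise was of PRPS2, which turns ribose 5-phosphate, the product of RPIA, into the activated sugar for nucleotide synthesis. PRPS2 was at 479, 535 and 490 and then 1180, 1293 and 1248 (1.31 ± 0.07, limma adjusted p = 4.47e-15). Also higher were mitochondrial malic enzyme 2 (ME2, 0.85 ± 0.09), ketohexokinase (KHK, 0.54 ± 0.15) and lactate dehydrogenase B (LDHB, 0.45 ± 0.05). Lactate dehydrogenase A (LDHA), which reduces pyruvate to lactate, rose from 20608, 19673 and 19121 to 25825, 24660 and 27643 (0.39 ± 0.05, limma adjusted p = 3.21e-08), and over the alternatives its change ran from 0.14 to 0.43 and that of LDHB from 0.24 to 0.50.

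Beside PGAM4, the largest falls in that list were of the glucose carrier SLC2A6 (-0.98 ± 0.12), the sugar phosphate exchanger SLC37A2 (-0.93 ± 0.08) and PPP1R3D, a subunit that brings protein phosphatase 1 to glycogen (-0.78 ± 0.13). SLC2A6 went from 224, 225 and 200 to 111, 118 and 97.3. SLC37A2 went from 666, 591 and 594 to 295, 347 and 332. In both, all treated samples were below all control samples.

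Of 29 regulators of these pathways, 24 were tested, 6 rose (25.0%) and 8 fell (33.3%), beside 26.8% and 25% of all tested genes. MYC, a transcription factor known to drive glycolytic genes, rose from 1986, 2104 and 2138 to 2941, 3120 and 2682 (0.49 ± 0.06, limma adjusted p = 2.74e-08). HIF1A, the oxygen-sensitive factor that drives SLC2A1 and most glycolytic genes, fell from 16244, 15731 and 15842 to 12309, 12042 and 12422 (-0.38 ± 0.04, limma adjusted p = 1.33e-08). MLXIP, a glucose-sensing factor, had the largest fall in this list (-0.60 ± 0.06), followed by EGLN2, a prolyl hydroxylase of HIF factors (-0.45 ± 0.07), and SREBF1, a regulator of lipid synthesis (-0.41 ± 0.06). EGLN3, another prolyl hydroxylase and itself a HIF target, rose (0.41 ± 0.10), as did the kinase AKT2 (0.26 ± 0.06), and EGLN3 and AKT2 lost their calls without limma's trend and robust options (adjusted p = 0.0509 and 0.0583). TXNIP, which limits glucose uptake, was listed at 0 in all 6 samples. Whether the gene was silent or its reads were not assigned to it was not tested. These are RNA levels, and HIF1A is known to be controlled mainly at the protein level.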

How the data were processed

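Total RNA of 6 samples was sequenced from NEBNext Ultra libraries, per the labels' protocols. HISAT2, DESeq2, GRCh38 and GRCm38 are named in the submitters' processing notes, without versions or roles. The counter, its annotation and its strand setting are not given in the sources used here. Per the file headers, the values of each sample are a normalized signal, that is, counts divided by that sample's size factor. The authors' own comparison stands beside them in the deposited table as a log2 fold change and its error (also log2), a score and a raw and an adjusted p-value. In each sample 100% of values were whole multiples of 1 step to within 0.01, with size factors of 0.843 to 1.32. Of 61862 lines, 3 were malformed and left out, and 27396 genes were at 0 throughout.

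Groups came from the sample titles. Limma 3.58.1 in R 4.3.3 (lmFit, eBayes with trend and robust) was fitted to log2(normalized count + 1) over the 18460 genes with a mean of at least 10, with Benjamini-Hochberg adjustment over all of them and a threshold of 0.05. This scale understates changes of low genes. The steps were tested on simulated data. Shares of isozymes and FOXA1 were tested with the exact two-sided permutation test. Lengths, positions and exon overlaps are from GENCODE 29 (GRCh38), and 61756 gene IDs matched the human gene name table.

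Values are given for every member. From the lists of other pathway genes and of regulators, up to 4 genes that rose and 4 that fell by size of change were named, with a mean of at least 50, and also LDHA, TXNIP, MYC and HIF1A. Some genes that this rule names are not reported here. The members and lists were chosen with earlier results of these data known. The division into pathway steps, the overlapping genes described and the rule for the printed promoters were set after the values were seen.

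Alternatives were pseudocounts of 0.5 and 5, no filter, a mean of at least 50, 4 other scalings, limma without trend and robust, the replicate number as a block and each sample left out in turn. Another gene length for the isozyme shares was added after the data were seen.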

Additional observations from a re-analysis of the deposited data

How the results depend on the processing

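Of the 37 tested members, 14 kept their direction and their side of the threshold in all 16 alternatives run, 12 of them past it. The planned count-based fits (edgeR, DESeq2 and limma-voom) were not run, because a second check of the reads recovered from the values did not pass in every sample's column. With equal totals, 5 members rose and the members' median log2 fold change was -0.142, beside -0.093 over all tested genes. After quantile normalization 20 fell, and the members' median was -0.126 where that of every tested gene was 0.029. After cyclic loess normalization 4 rose and 21 fell, and against 0.007 for every tested gene the members' median was -0.190. Limma without its trend and robust options called 5 rises and 8 falls. With 1 sample left out the median ran from -0.071 to -0.016. With equal totals, PFKM was at -0.07, GAPDH at -0.08, PGK1 at -0.09 and GBE1 at -0.03. After quantile normalization PFKM was at -0.04, PGK1 at -0.15, ENO1 at -0.11, ENO3 at -0.07 and TKT at -0.02. After cyclic loess normalization PFKM was at -0.04, GAPDH at -0.28, PGK1 at -0.20, ENO1 at -0.12, ENO3 at -0.07, TKT at -0.07 and UGP2 at -0.02. With recomputed median-of-ratios factors PGK1 was at -0.01. With 1 sample left out, SLC2A3 ran from -0.10 to 0.06, PFKL from -0.05 to 0.02, PFKM from -0.03 to 0.06, GAPDH from -0.005 to 0.04, PGK1 from -0.04 to 0.04 and PGLS from -0.09 to 0.03. In each of these the cause was not tested. Same-numbered samples did not deviate together (r = -0.0102, 0.0109 and -0.0109), and not every sample correlated best with its own number. The replicate block gave 9 rises and 11 falls, with ME1 at -0.15 (limma adjusted p = 0.0607). Of the tested members, ENO2, PFKFB4 and H6PD had the fewest reads, at means of 132, 147 and 149 normalized counts.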

Other observations

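Among the other pathway genes, some groups that share a symbol stem were looked at after their values were seen. Of 7 tested glucose carriers of the SLC2A family beyond SLC2A1 and SLC2A3, 5 fell and none rose, where 25% of all tested genes fell and 26.8% rose, with log2 fold changes from -0.98 to -0.24. SLC2A8, an intracellular carrier, went from 476, 508 and 460 to 345, 377 and 308 normalized counts (-0.49 ± 0.09, limma adjusted p = 2.5e-05), and SLC2A12 from 394, 429 and 388 to 290, 313 and 331 (-0.37 ± 0.09, limma adjusted p = 0.000677). All treated samples lay below all control samples in both genes. SLC2A9, which carries urate, and SLC2A11 fell as well (-0.57 ± 0.11 and -0.44 ± 0.10).

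Around UDP-glucose and glycogen, the genes moved in both directions. UGDH, which oxidizes UDP-glucose to UDP-glucuronate, fell from 1895, 1700 and 1862 to 1063, 1085 and 1126 (-0.74 ± 0.06, limma adjusted p = 2.62e-11). The glycogen primer GYG1 rose (0.36 ± 0.06), whereas the lysosomal glucosidase GAA (-0.30 ± 0.06) and the kinase GSK3B, which phosphorylates glycogen synthase (-0.39 ± 0.06), fell. Of 6 PPP1R3 subunits, which bring protein phosphatase 1 to glycogen, 2 fell and none rose. Of 5 subunits of phosphorylase kinase, PHKA2 rose (0.19 ± 0.08) and PHKG1 fell (-0.42 ± 0.11). Over all tested genes 26.8% rose and 25% fell. The genes of this paragraph were chosen after their values were seen.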
